A study of Homo sapiens with 6 samples.

Results

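The baseline transcriptome of OCI-AML2 was described from the 3 libraries labelled NT control, out of 6 libraries in the series. OCI-AML2 is an established human line of acute myeloid leukemia, a cancer in which immature cells of the granulocyte and monocyte line accumulate. The control cells carried a non-targeting CRISPR guide, so no gene was aimed at, and received no drug or other agent that the labels name. They were grown in medium with fetal bovine serum, and polyadenylated RNA was made into stranded mRNA libraries. The labels differ on what a replicate is: the design text speaks of 3 control lines, but the protocol for RNA isolation mentions triplicates and names parental cells rather than a non-targeting control. Whether the lines were clones or pools is not stated. The spread given here may therefore lie between lines or between extractions, and may be technical. The study concerns palbociclib, which inhibits CDK4 and CDK6, and venetoclax, which inhibits BCL2. Libraries were chosen by their label alone and not by any measured value. All 3 were used, and every gene row of the deposited table was a candidate, 58233 identifiers in all.

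A leukemic cell of this kind is held at an early stage of myeloid development. Normal precursors at that stage make the primary (azurophilic) granules, which are filled with serine proteases and other antimicrobial proteins, and they switch on a second set of granule genes only later. The transcription factors PU.1 and C/EBPα open the myeloid programme, while HOXA genes with their MEIS and PBX partners sustain self-renewal in many leukemias. Levels are given as CPM, the count of a gene per 1000000 counts of its library, in the order replicate 1, replicate 2, replicate 3. For any statement that sets genes against each other, CPM was divided by the length in kilobases (kb) of all annotated exons of the gene. A gene was called expressed at 1 CPM or more in each of the 3 libraries.

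The libraries held 11699047, 14983528 and 11300519 counts, so 1 CPM stood on about 11 to 15 counts. Each library had a count for 17640 to 18463 genes. Of 58233 identifiers, 11733 were expressed (20.1%), and these held 99.7% of the counts. Of 19791 protein-coding genes, 10673 were expressed (53.9%), 6083 had 0 counts in all 3 libraries (30.7%) and 3035 lay between. A count of 0 in the 3 libraries together allows a level of up to 0.0790 CPM, counting error only, since reads without molecular identifiers are not independent molecules. Replicates 1 and 3 were close to each other, with a Pearson r of log2 CPM across expressed genes of 0.995 and a median absolute log2 difference of 0.0934. Replicate 2 stood apart, with r of 0.963 and 0.962 to replicates 1 and 3 and median absolute differences of 0.357 and 0.362. It lay above or below both of them for 10597 of the 11733 expressed genes. Being highest or lowest in replicate 2 is therefore common and not particular to the genes named below. These correlations are across genes of shared libraries and carry no test. Each level below is therefore given per library or with its SD over the 3 libraries, and the genes that set replicate 2 apart are described at the end.

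Counts were concentrated in transcripts for translation, the cytoskeleton and the mitochondrion. The most abundant gene held 1.83, 2.96 and 1.92% of counts, the 10 most abundant 7.16, 8.54 and 6.88%, and the 100 most abundant 23.4, 27.1 and 22.96%. Between 649 and 791 genes made up 50% of each library. Replicate 2 was the most concentrated of the 3 libraries at every one of these marks. Wilson 95% intervals were computed for the shares of gene classes given below, not for these shares. They were within 0.0171 percentage points of the value and cover counting error only. Among expressed protein-coding genes the median level was 37.9 CPM, or 7.23 CPM per kb, and the 95th percentile was 63.1 CPM per kb. Levels of 10 CPM or more in each library were reached by 8480 protein-coding genes and 100 CPM or more by 1745.

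**Figure D1:**
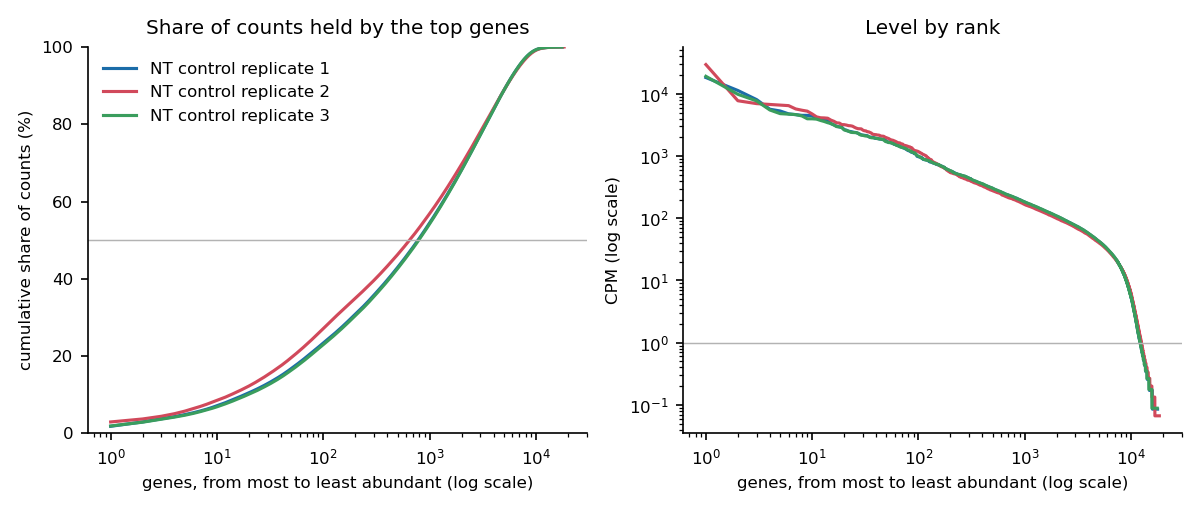
Cumulative share of counts (left, %) and level in CPM (right) against the rank of genes from most to least abundant, 1 line per NT control library, with logarithmic rank and CPM axes. The lines of replicates 1 and 3 nearly coincide, and the line of replicate 2 lies above them on the left, reaching 50% of counts at 649 genes.

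EEF1A1, the elongation factor that brings aminoacyl-tRNA to the ribosome, was the most abundant gene at 18308, 29589 and 19166 CPM. EEF2, which moves the ribosome along the message, had 4629, 6471 and 4645 CPM, and PABPC1, which binds poly(A) tails, had 3886, 5461 and 3928 CPM. Replicate 2 was the highest library for each of these 3 genes. All 79 cytosolic ribosomal protein genes were expressed, and together they held 9.50, 13.1 and 9.47% of counts. RPL3 led them by CPM (3739, 5272 and 3735) and RPS12 per kb (2219 ± 312 CPM per kb, SD, n = 3). The median ribosomal protein gene stood at 371 CPM per kb, against 7.23 over all expressed protein-coding genes. Their CPM was higher in replicate 2 than in both other libraries for 76 of 79 genes. Of all 11733 expressed genes, 10597 lay above or below both other libraries in replicate 2, a count that joins both directions. The median log2 difference of replicate 2 from the mean of replicates 1 and 3 was 0.468 for ribosomal protein genes. It was -0.00395 over all 12292 genes of at least 1 CPM on average.

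Translation genes of this kind are known for messages that begin with a C followed by a run of pyrimidines, the 5′ terminal oligopyrimidine tract. The RefSeq starts of 6 abundant ones and of GAPDH, for contrast, are shown because such starts were common among these genes. The genes shown were picked by hand. Each window runs 5′ to 3′ from 30 bases before the start site to 20 after it on GRCh38.p14, the sign in brackets is the strand, and capitals mark the unbroken pyrimidine run at the start:
EEF1A1, chr6:73521013-73521062 (-): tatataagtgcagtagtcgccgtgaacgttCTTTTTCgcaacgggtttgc
EEF2, chr19:3985444-3985493 (-): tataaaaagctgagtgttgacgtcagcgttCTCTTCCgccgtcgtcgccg
RPS12, chr6:132814539-132814588 (+): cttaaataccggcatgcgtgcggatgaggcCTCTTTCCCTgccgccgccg
RPL13A, chr19:49487578-49487627 (+): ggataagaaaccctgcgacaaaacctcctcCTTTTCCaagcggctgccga
TPT1, chr13:45341164-45341213 (-): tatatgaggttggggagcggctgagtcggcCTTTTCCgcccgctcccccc
RPL3, chr22:39319604-39319653 (-): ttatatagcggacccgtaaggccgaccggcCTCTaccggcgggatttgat
GAPDH, chr12:6535234-6535283 (+): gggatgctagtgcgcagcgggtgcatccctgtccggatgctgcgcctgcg
The first 5 had runs of 7 to 10 pyrimidines opening with C, RPL3 had a run of 4, and GAPDH began with a G. A start with C and at least 4 more pyrimidines was found for 47 of the 63 ribosomal protein genes with a RefSeq window (74.6%), for 8 of 14 listed translation factors (57.1%), for 7.83% of expressed protein-coding genes and for 5.14% of all 27305 genes with a window. RPL4, also among the 20 highest by CPM and not shown, lacked such a start, whereas HSP90AB1 and TUBB, which are not translation genes, had it. The search read the printed strand from the annotated start site, which may not be the start used in these cells. A match is a description of the letters.

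Genes of the cytoskeleton were also abundant. All 23 listed genes were expressed, against 53.9% of protein-coding genes, with a median of 131 CPM per kb. Beta-actin ACTB had 8093, 6611 and 7709.6 CPM, gamma-actin ACTG1 4512, 5725 and 4417 CPM, and the tubulin gene TUBB 4013, 2542 and 3972 CPM. ACTB and TUBB were lowest and ACTG1 was highest in replicate 2. TMSB4X, which sequesters actin monomers, reached 969 ± 41.4 CPM per kb (SD, n = 3) with less spread (1685, 1571 and 1699 CPM). The mitochondrial genome was also strongly represented: its genes held 4.21, 3.16 and 3.63% of counts, led by MT-CO1, a subunit of cytochrome c oxidase, at 11333, 7751 and 9837 CPM. The 13 mitochondrially encoded proteins together were lowest in replicate 2 (3.58, 2.36 and 3.06% of counts), whereas the ribosomal RNA MT-RNR2 was highest there (5307, 6766 and 4728 CPM).

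Among the 20 highest genes per kb were also a granule gene, a ferritin gene and a glycolytic gene. SRGN encodes serglycin, the proteoglycan core of blood cell granules, and stood at 2839 ± 126 CPM per kb (SD, n = 3). FTL, the light chain of the iron store ferritin, stood at 2458 ± 303, and GAPDH, an enzyme of glycolysis, at 2028 ± 269.7. FTH1, the ferritin heavy chain, was far lower at 118 ± 6.63 CPM per kb, a ratio of FTL to FTH1 of 20.4, 22.3 and 19.7. A caution applies to FTH1: 31.4% of its 75-base transcript windows also occur in another annotated gene, against 9.45% for FTL, and the part of this in its count was not tested.

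Markers of the labelled cell type were present. Of 22 genes of myeloid identity, 19 were expressed, a share of 86.4% against 53.9% of protein-coding genes. Their median was 14.03 CPM per kb. SPI1, which encodes PU.1, had 232, 221 and 234 CPM, and CEBPA, which encodes C/EBPα, had 243, 218 and 257 CPM. CORO1A, an actin regulator of white blood cells, led the list per kb (151 ± 7.88 CPM per kb, SD, n = 3), and overlapped the lysosomal membrane protein gene LAPTM5 (148 ± 16.5). The 3 libraries were close together for SPI1, CEBPA and CORO1A. More spread was seen in CSF3R, the receptor of granulocyte colony-stimulating factor (214, 391 and 203 CPM), which was highest in replicate 2. CYBB, the catalytic subunit of the phagocyte oxidase, was lowest there (79.6, 42.2 and 80.4 CPM). The 3 members below the threshold were ITGAM, ANPEP and CD68, at 0.557, 0.366 and 0.0590 CPM on average. For CD68, 83.98% of windows are shared with another gene, so its level is uncertain. RNA was measured in bulk, so fewer cells making a transcript and less of it per cell cannot be told apart here or below.

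Primary granule genes were abundant, and the later granule genes were at or near 0. Of 15 primary granule genes, 13 were expressed (86.7%, against 53.9% of protein-coding genes). The list median was 60.04 CPM per kb, against 7.23 for expressed protein-coding genes. After SRGN the order per kb was AZU1, which encodes azurocidin (570.3 ± 302, SD, n = 3), the eosinophil-derived neurotoxin gene RNASE2 (256.41 ± 21.7), the proteinase 3 gene PRTN3 (229 ± 175), the cathepsin G gene CTSG (189.7 ± 15.3) and the lysozyme gene LYZ (154 ± 27.1). AZU1 lay above RNASE2 in all 3 libraries without overlap, whereas RNASE2 and PRTN3 overlapped. MPO, myeloperoxidase, was low for this group at 7.13 ± 1.71 CPM per kb, and AZU1 exceeded it 62.9, 101 and 65.9 times per kb. ELANE, neutrophil elastase, had 79.2, 194 and 85.7 CPM. AZU1 (715, 1639 and 696 CPM), PRTN3 (145, 494 and 148) and ELANE were each more than 2-fold higher in replicate 2 than in the other libraries. RNASE2 (196, 176 and 209) and CTSG (249, 285 and 248) stayed within 1.5-fold. Of 12 secondary and tertiary granule genes, 1 was expressed (8.33%): ARG1, arginase, at 4.87, 24.03 and 3.63 CPM. LCN2, MMP8, MMP9, CEACAM8 and CRISP3 had 0 counts, and LTF, CAMP, OLFM4, HP, TCN1 and CHI3L1 stayed under 1 CPM in every library.

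AZU1 and PRTN3 lie next to each other on chromosome 19, and the 150 bases before their RefSeq starts are shown since both were abundant and both were highest in replicate 2. The windows are on GRCh38.p14, run 5′ to 3′ and end at the base before the start. Capitals mark matches, on either strand, to GAGGAA (the core of ETS factors such as PU.1), TTNNGNAA (C/EBP) or AACNGNC (MYB), with no overlaps among them:
AZU1, chr19:827687-827836 (+): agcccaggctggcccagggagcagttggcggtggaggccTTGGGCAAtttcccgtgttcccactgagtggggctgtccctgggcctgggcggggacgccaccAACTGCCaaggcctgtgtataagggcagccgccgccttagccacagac
PRTN3, chr19:840849-840998 (+): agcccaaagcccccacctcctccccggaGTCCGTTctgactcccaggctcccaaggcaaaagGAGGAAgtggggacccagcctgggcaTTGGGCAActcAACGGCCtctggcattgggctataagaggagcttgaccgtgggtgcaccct
Both windows hold the letters TTGGGCAA, from 111 to 104 bases before the start in AZU1 and from 62 to 55 bases before it in PRTN3, followed by a MYB match (AACTGCC, 48 to 42 before, and AACGGCC, 51 to 45 before). PRTN3 also has a MYB match on the other strand and GAGGAA from 88 to 83 before the start. Of the 7 primary granule genes with a RefSeq window, in 300 bases around the start 6 had TTNNGNAA, 4 had AACNGNC and 3 had GAGGAA, where 41.8%, 36.8% and 31.8% of all genes with a window have them. Counts of RNA do not show whether any factor binds there.

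Genes of maturing monocytes and macrophages were expressed in part. Of 22, 8 were expressed (36.4%, against 53.9% of protein-coding genes), with a median over the list of 0.122 CPM per kb. MNDA, a nuclear antigen of myeloid cells (89.9, 93.4 and 94.6 CPM), S100A9, a calprotectin subunit (25.98, 24.6 and 21.4), the IgG receptor gene FCGR1A (52.9, 64.4 and 52.6), and the chemokine receptor gene CCR2 (53.9, 39.4 and 57.8) were present. S100A8, the partner of S100A9, was 6.59 to 9.30 times lower per kb. For FCGR1A, 51.2% of windows are shared with another gene. CSF1R, the receptor of macrophage colony-stimulating factor, was near the threshold in replicate 2 (4.62, 1.27 and 3.89 CPM). FCGR3A, CD163 and the complement genes C1QA and C1QB had 0 counts, and CD14 had 0.215 CPM on average. Of 12 dendritic cell genes, 3 were expressed (25%): IRF8, a transcription factor of monocyte and dendritic precursors (215, 293 and 223 CPM), BATF3 (10.7, 7.74 and 10.4) and CLEC9A (7.86, 12.01 and 10.8). CD1A, CD1C, XCR1, CLEC10A and CD207 had 0 counts.

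Genes of stem and progenitor cells were expressed in part. Of 22, 10 were expressed (45.5%, near the 53.9% of protein-coding genes), 7 had 0 counts and 5 were under 1 CPM in at least 1 library. MYB, which maintains proliferating progenitors (379, 451 and 397 CPM), LMO2 (141, 178 and 140.2), the receptor tyrosine kinase gene FLT3 (171, 232 and 185) and the surface enzyme gene CD38 (120.3, 131 and 118) were present. CD34, the classical marker of stem and progenitor cells, had 0 counts, as had PROM1, ERG, MECOM and HLF. KIT, the stem cell factor receptor, had 1, 0 and 1 counts, which is 0.0580 CPM on average, and MSI2 had 0.124 CPM.

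**Figure D2:**
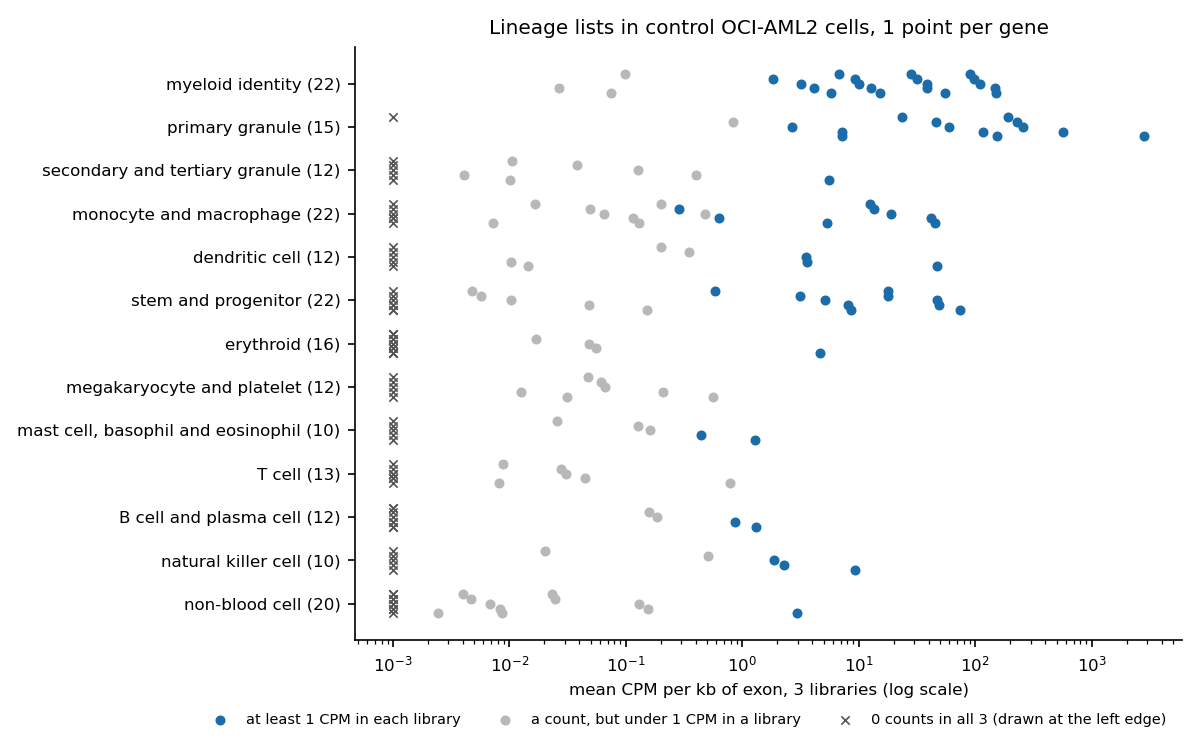
Mean CPM per kb of exon over the 3 NT control libraries (logarithmic axis) for each gene of 13 lineage lists, with the number of genes in brackets. Blue points are expressed genes, grey points have counts below the threshold, and crosses at the left edge have 0 counts. The myeloid identity and primary granule lists have 19 of 22 and 13 of 15 genes expressed, and the T cell and megakaryocyte and platelet lists hold no expressed gene.

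Most listed genes of other blood lineages and of non-blood tissues were not expressed, set against the 53.9% of protein-coding genes that were expressed. No listed gene of T cells (0 of 13) or of megakaryocytes and platelets (0 of 12) was expressed, and T cell genes summed to at most 1.47 CPM in any library. Of 16 erythroid genes, 12 had 0 counts, among them HBB and ALAS2, and EPOR, the erythropoietin receptor, was the 1 expressed gene (10.6, 21.02 and 11.33 CPM). HBA1, HBA2, HBG2, GP1BB, ITGB3, PRG2 and the tryptase genes TPSAB1 and TPSB2 share 50% or more of their windows with another gene, so their low values are uncertain. Of 10 genes of mast cells, basophils and eosinophils, 2 passed narrowly: EPX at 1.88, 6.27 and 2.39 CPM and HDC at 1.80, 2.14 and 1.33. Of 20 non-blood genes, 1 was expressed, PDGFRB, the receptor of platelet-derived growth factor, at 15.6, 35.3 and 12.3 CPM, and it was highest in replicate 2.

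A few lymphoid genes were exceptions. Of 12 B cell and plasma cell genes 2 were expressed (16.7%), and of 10 natural killer cell genes 3 (30%). The share over all protein-coding genes was 53.9%. PAX5, the transcription factor that commits cells to the B lineage, was expressed at 11.28, 11.8 and 13.4 CPM, close together in all 3 libraries. Per kb the level was low: no listed B cell gene exceeded 1.30 CPM per kb, against a median of 7.23 for expressed protein-coding genes. Other B cell genes were lower or undetected: CD79A had 0.277 CPM, and MS4A1, EBF1, CD22 and VPREB1 had 0 counts. CD79B was just above the threshold (1.80, 1.80 and 1.86 CPM). Among natural killer cell genes, NCAM1, which encodes the adhesion molecule CD56, had 28.1, 34.2 and 24.6 CPM, the granule membrane protein gene NKG7 8.80, 9.81 and 7.52, and KLRF1 2.74, 2.14 and 2.21. GNLY, GZMB, KLRD1 and NCR1 had 0 counts.

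Of 37 blood transcription factors, 27 were expressed (73.0%, against 53.9% of protein-coding genes). MYC, which drives growth and ribosome production, led per kb at 315 ± 25.2 (SD, n = 3), with 912, 1033 and 894 CPM. It was followed by SPI1 (111 ± 3.54), CEBPA (91.03 ± 7.48), MYB (74.5 ± 6.85) and GFI1, a repressor of granulocyte precursors (49.8 ± 3.13). Each of the first 4 steps in that order held in every library without overlap. IRF8 (47.2 ± 8.30) overlapped GFI1 and lay above IKZF1, which encodes Ikaros (29.2 ± 2.69). IKZF1 is the gene targeted elsewhere in the series, and in these control libraries it had 334, 285 and 338 CPM. MEF2C (317, 317 and 312 CPM), ZEB2 (202, 211 and 209) and RUNX1 (174, 151 and 176) were also well expressed, and their libraries lay within 1.2-fold of each other. RUNX2 was higher in replicate 2 (61.5, 126 and 67.2 CPM). CEBPE (28.02 ± 1.18 CPM per kb), which acts late in granulocyte maturation, exceeded CEBPB (3.22 ± 0.515). Regulators with 0 counts were GFI1B, ERG, IKZF2, IKZF3, IRF4, GATA3, EBF1 and TCF7. GATA1 had 0.0730 CPM, while GATA2 had 26.2, 16.4 and 25.7 CPM and was lowest in replicate 2.

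Of the HOX genes listed, 8 of 11 in the A cluster were expressed and none in the B cluster. The whole list with cofactors had 12 of 25 genes expressed (48%, near the 53.9% of protein-coding genes). HOXA9 (23.2, 32.8 and 22.1 CPM), HOXA10 (25.6, 39.9 and 25.1), HOXA11 (11.8, 17.8 and 11.9), HOXA5 (6.92, 10.7 and 9.9995) and HOXA7 (10.001, 9.94 and 8.14) were expressed, and HOXA6 and HOXA3 were present at lower levels. HOXA2, HOXA4 and HOXA13 stayed under 1 CPM. All 9 HOXB genes listed had 0 counts. The cofactors MEIS1 (23.4, 51.9 and 28.4 CPM), MEIS2 (42.2, 38.4 and 42.5), PBX2 (91.3, 88.2 and 80.97) and PBX3 (93.1, 134 and 87.9) were expressed. Per kb, PBX3 (23.2 ± 5.58) and PBX2 (19.99 ± 1.22) overlapped each other and stood above HOXA9 (8.60 ± 1.93). Of the 12 expressed members, 11 had a positive log2 difference in replicate 2, where the median over all genes compared was -0.00395. At least 2-fold higher were 2, MEIS1 (1.04) and HOXA3 (1.20), against 5.96% of all genes compared. HOXA3, HOXA6, HOXA9, HOXA10 and PBX2 overlap another gene's exons on the same strand, so their counts are uncertain.

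Surface antigens matter as markers and as targets of antibodies. Of 64 listed genes, 37 were expressed (57.8%, near the 53.9% of protein-coding genes), 18 were under the threshold and 9 had 0 counts. Class I antigen presentation led: HLA-B had 485, 861 and 498 CPM, HLA-C 292, 391 and 296 and the light chain gene B2M 668, 931 and 668. These 3 were highest in replicate 2, and between replicates 1 and 3 they differed by less than 1.1-fold. Class II was at low levels. HLA-DRA, the alpha chain of HLA-DR, had 0.359 CPM, CIITA, the class II master activator, 0.263, and HLA-DRB1 2.74, 3.87 and 2.21 CPM.

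CD70, the ligand of CD27 and an antibody target, was the highest listed antigen after class I (98.6 ± 18.7 CPM per kb, SD, n = 3, with 134, 184 and 135 CPM). It lay above FLT3 (47.2 ± 7.70) in every library without overlap. Next came the transferrin receptor gene TFRC (409, 212 and 418 CPM), the chemokine receptor gene CXCR4 (80.3, 129 and 79.5), the selectin ligand gene SELPLG (77.7, 159 and 83.8) and CD4 (165, 245 and 161), whose per-kb ranges all overlapped their neighbours. TFRC was lowest and CXCR4, SELPLG and CD4 were highest in replicate 2. CD33, the target of gemtuzumab ozogamicin, had 74.2, 82.6 and 73.1 CPM and 12.8 ± 0.873 CPM per kb. CLEC12A (16.97 CPM per kb), CD38 (17.98) and LILRB1 (10.04) lay around it. IL3RA, the alpha chain of the interleukin-3 receptor known as CD123, had the widest spread of the 37 expressed antigens (7.27, 16.5 and 5.66 CPM). Per kb, CD33 exceeded it by 2.92, 1.43 and 3.69 times. CD47, which restrains phagocytosis, had 75.8, 96.3 and 83.5 CPM, and IL1RAP 38.4, 38.1 and 44.4. Among other listed surface genes of immune regulation, PVR (30.8, 18.4 and 32.03 CPM), NECTIN2 (101, 86.8 and 99.3), VSIR (11.9, 10.1 and 8.85) and LILRB4 (19.4, 22.2 and 14.6) were expressed. CD274, which encodes PD-L1, had 0.126 CPM, HAVCR2, which encodes TIM-3, 0.232, and CD86 1.09. CD34, CD7, CD96, SIGLEC6, SIGLEC9, MSLN and IL2RA had 0 counts.

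**Figure D3:**
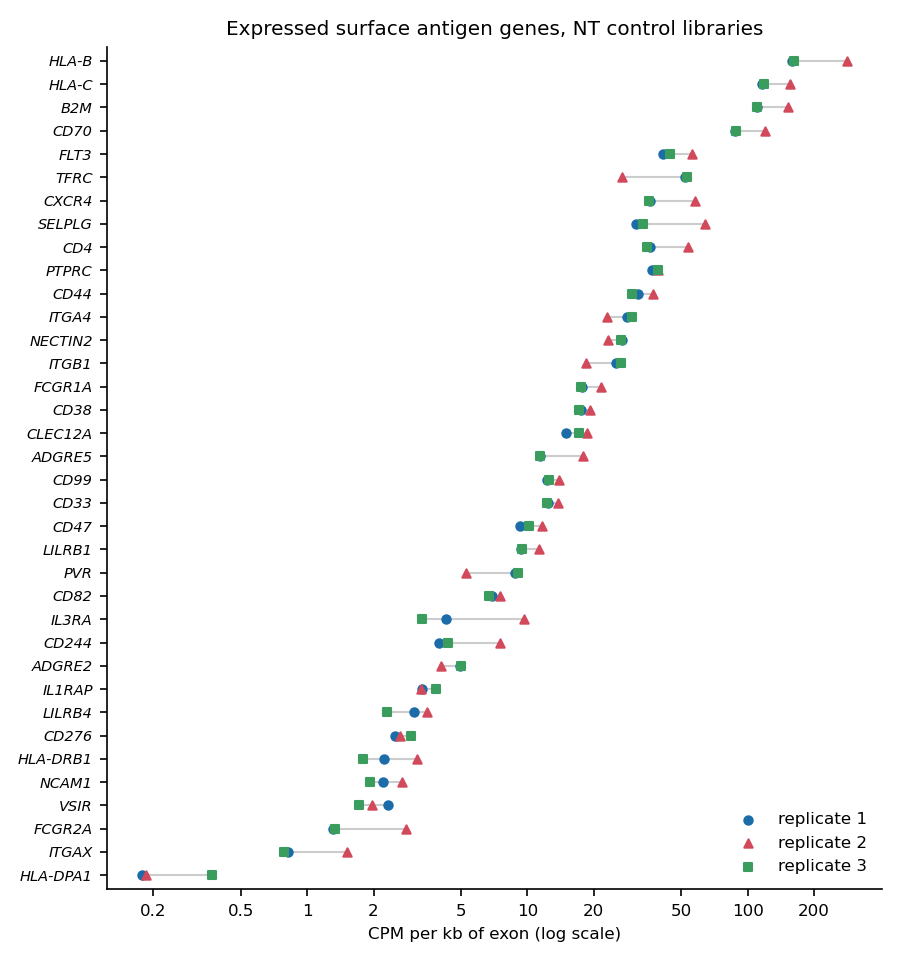
CPM per kb of exon (logarithmic axis) of the expressed surface antigen genes but 1, ordered by their mean, with 1 point for each of the 3 NT control libraries and a grey line over their range. Class I genes and CD70 lie at the top, HLA-DPA1 at the bottom, and replicate 2 is the outermost point for most genes.

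Genes of the BCL2 family set the threshold for mitochondrial cell death, with guardians that BH3-mimetic drugs block. Of 17 members, 13 were expressed (76.5%, against 53.9% of protein-coding genes), with a median over the list of 7.47 CPM per kb. Among guardians, MCL1 had 226, 186 and 231 CPM and BCL2, the target of venetoclax, 319.5, 340.4 and 332 CPM. Per kb of exon MCL1 (49.001 ± 5.68, SD, n = 3) lay above BCL2 (28.1 ± 0.896), a BCL2 to MCL1 ratio of 0.53, 0.68 and 0.53. The length matters here: by the longest transcript alone the levels would be 54.5 and 44.3 CPM per kb. BCL2 exceeded BCL2L1, which encodes BCL-xL (6.55 ± 1.52), by 3.58, 6.01 and 3.89 times. BCL2A1 was low (2.22, 2.07 and 2.92 CPM), and BCL2L10 had 0 counts. BCL2 was steady across the libraries, with a CV of 3.19%.

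Of the effectors that perforate the mitochondrial outer membrane, BAX had 148, 67.1 and 145 CPM and BAK1 42.7, 29.8 and 41.4. BAX exceeded BAK1 per kb by 2.97, 1.93 and 2.99 times, and replicate 2 held less than 50% of the BAX level of the other libraries. BOK had 0 counts. The activator BCL2L11, which encodes BIM, had 112, 122 and 101 CPM, BID 61.5, 46.2 and 62.6, and BBC3, which encodes PUMA, 18.21, 35.97 and 20.97. PMAIP1, which encodes NOXA, an antagonist of MCL1, had 33.6, 15.95 and 38.8 CPM and was lowest in replicate 2, whereas BBC3 was highest there. HRK had 0 counts and BIK 0.235 CPM. MCL1, BBC3 and BCL2L2 overlap exons of another gene on the same strand.

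The G1 machinery on which palbociclib acts was present almost in full, with 20 of 23 genes expressed (87.0%, against 53.9% of protein-coding genes). CDK4 had 221, 156 and 215 CPM and CDK6 362, 366 and 369 CPM, of which CDK6 varied little (CV 1.06%). Per kb CDK4 (62.4 ± 11.29) lay above CDK6 (29.8 ± 0.318), a CDK6 to CDK4 ratio of 0.42, 0.61 and 0.44. Of their D cyclin partners, CCND3 was the highest in every library, and was lowest in replicate 2 (231, 71.7 and 235 CPM). Its ratio to CCND1 (18.5, 23.2 and 17.9 CPM) per kb was 10.4, 2.57 and 10.95. CCND2 was under 1 CPM in replicates 1 and 3. RB1, the substrate that restrains E2F, had 131, 119.7 and 131 CPM. CDKN2A, whose p16 product inhibits CDK4 and CDK6, had 36.1, 38.2 and 36.5 CPM with the 3 libraries close together, CDKN2C 60.9, 82.8 and 63.01, and CDKN2B averaged 0.538 CPM. These are counts per gene, so the CDKN2A transcript that encodes p16 was not measured by itself. CDKN1A, which encodes p21, had 81.03, 29.6 and 77.1 CPM and CDKN1B, which encodes p27, 43.1, 63.7 and 43.5. In replicate 2 the former was lower and the latter higher. CDKN1C had 0 counts. The S-phase cyclins CCNE1 (26.3, 12.01 and 31.2 CPM) and CCNE2 (27.1, 7.94 and 25.6) and the phosphatase CDC25A (71.5, 26.96 and 66.99) were also lower in replicate 2. CDK4, CDK6, CCND3 and CDKN1A overlap a gene on the opposite strand, and the strand setting of the counting is not given in the sources used here.

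**Figure D4:**
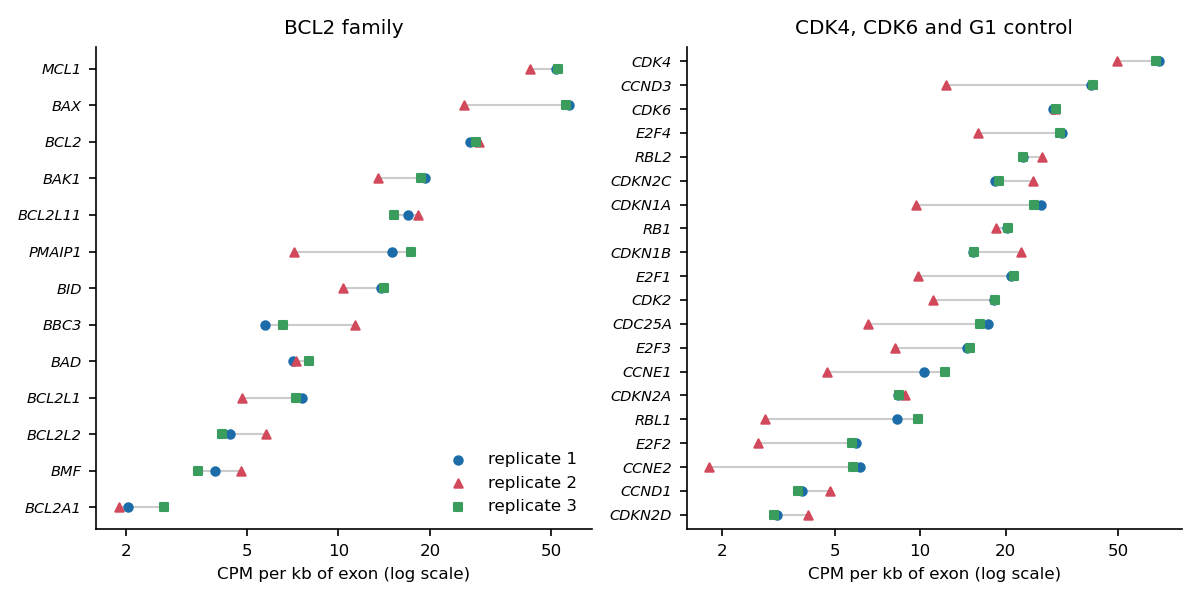
CPM per kb of exon (logarithmic axes) of the expressed BCL2 family genes (left) and G1 control genes (right), with 1 point for each of the 3 NT control libraries and a grey line over their range. BCL2 and CDK6 show almost no spread, and CCND3, CCNE2, BAX and PMAIP1 have replicate 2 far to the left.

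Kinases that are drug targets were expressed in 35 of 39 cases (89.7%, against 53.9% of protein-coding genes). The median over the list was 9.09 CPM per kb. SYK led (61.8 ± 5.74 CPM per kb, SD, n = 3), above BTK (49.1 ± 4.36) in all 3 libraries, although by as little as 1.02 times in replicate 2. Both carry signals from immune receptors. FLT3, which is the target of midostaurin and gilteritinib, had 171, 232 and 185 CPM, and the mitotic kinases PLK1 (245, 176 and 236 CPM), AURKA (117, 84.8 and 123) and AURKB (90.9, 80.2 and 90.4) were next per kb. Of the JAK family, TYK2 (14.7 ± 1.12 CPM per kb) and JAK1 (9.09 ± 0.445) exceeded JAK2 (3.01 ± 0.249) and JAK3 (1.07 ± 0.232). Among PIM kinases, PIM3 (18.02 ± 0.641) and PIM2 (11.1 ± 3.06) exceeded PIM1 (0.447 ± 0.0648). The SRC family member LYN was present and was lower in replicate 2 (159, 88.6 and 159.9 CPM). AXL was near the threshold (2.56, 4.004 and 1.86 CPM). KIT and PDGFRA were under 1 CPM, FGFR3 had 0.0445 CPM, and MET had 0 counts.

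Nearly all listed epigenetic and other drug targets were expressed, 35 of 36 (97.2%, against 53.9% of protein-coding genes), and SMO was the exception. HSP90AB1, a cytosolic chaperone, led at 1533 ± 129 CPM per kb (SD, n = 3), 4.34 to 7.52 times HSP90AA1. IDH2 (87.04 ± 1.90) exceeded IDH1 (13.8 ± 2.86) by 7.37, 5.01 and 7.05 times. Of the DNA methyltransferases, the maintenance enzyme DNMT1 (387, 222 and 369.7 CPM) exceeded DNMT3A (88.5, 100.4 and 85.6 CPM) per kb by 5.37, 2.72 and 5.30 times. MEN1, which encodes menin, had 91.4, 81.6 and 96.5 CPM, KMT2A 99.8, 84.6 and 105, DOT1L 105, 152 and 109 and the histone demethylase gene KDM1A 224, 182 and 235. The ubiquitin ligase gene MDM2 had 149.8, 112 and 147 CPM and its relative MDM4 61.5, 100.1 and 60.97 CPM. In replicate 2 MDM4 was higher and MDM2 lower than in the other libraries. CRBN, the receptor of lenalidomide, had 22.1, 27.03 and 19.7 CPM, and XPO1, the nuclear exporter that selinexor blocks, 416, 322 and 411.

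Of 17 listed genes of cytarabine handling, deoxynucleotide supply and drug efflux, 15 were expressed (88.2%, against 53.9% of protein-coding genes). Cytarabine is the nucleoside drug at the centre of leukemia therapy. SLC29A1, the transporter that admits it, had 283, 213 and 273 CPM, and DCK, the kinase that activates it, 52.4, 45.3 and 48.1. Per kb SLC29A1 exceeded DCK by 3.95, 3.44 and 4.16 times. CDA, which inactivates the drug, had 11.8, 20.2 and 9.82 CPM, and DCK to CDA per kb was 1.33, 0.67 and 1.46, so the order turned in replicate 2. SAMHD1, which hydrolyses the active triphosphate, was also lower in replicate 2 (80.01, 28.97 and 79.7 CPM). TYMS (367, 174 and 359.7 CPM) and RRM2 (329, 161 and 339.8), which supply deoxynucleotides, followed the same direction. The efflux pump gene ABCB1 had 0 counts and ABCG2 0.490 CPM, while ABCC1 (96.9, 73.9 and 92.6 CPM) and ABCC4 (59.3, 41.9 and 58.1) were expressed. DCK and RRM2 overlap exons of another gene on the same strand.

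Genes that are often mutated in acute myeloid leukemia were almost all expressed, 36 of 37 (97.3%, against 53.9% of protein-coding genes). Their median was 11.8 CPM per kb, and KIT was the exception. NPM1, nucleophosmin, led at 538 ± 32.1 CPM per kb (SD, n = 3). Cohesin was represented by RAD21 (566, 409 and 576 CPM), SMC1A (279, 155 and 292), SMC3 (148, 96.6 and 149) and STAG2 (164, 158 and 168). SMC1A was lower in replicate 2, whereas STAG2 stayed within 1.1-fold. U2AF1, a splicing factor, had 1.20, 1.94 and 1.06 CPM, but 93.6% of its windows also occur in another gene, and SRSF2 and SF3B1 had 332, 263 and 326 and 362, 339 and 358 CPM. Among leukemia-associated antigens, WT1 (36.4, 22.6 and 37.6 CPM), PRAME (25.7, 29.2 and 27.1), HMMR (61.03, 60.2 and 63.4) and BIRC5 (123, 78.1 and 116) were expressed. The cancer-testis genes MAGEA3, MAGEA4, CTAG1B, SSX2 and GAGE1 had 0 counts, of which CTAG1B and SSX2 share over 50% of their windows.

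Listed genes of proliferation, glycolysis and the unfolded protein response were all expressed. The 18 proliferation genes had a median of 55.3 CPM per kb, and PCNA, the replication clamp, led with 156 ± 71.3 CPM per kb, overlapping MCM3 (150.3 ± 63.8). All 19 glycolysis genes, 18 unfolded protein response genes and 19 ATF4 target genes were expressed, with medians of 75.6, 27.3 and 42.9 CPM per kb. CALR, a chaperone of the endoplasmic reticulum, had 1906, 1563 and 1963 CPM, and ATF4, which drives amino acid supply under stress, 737, 652 and 734. Cholesterol synthesis genes were expressed in 19 of 20 cases (95%), with FDFT1 (72.5 ± 8.62 CPM per kb) overlapping FDPS (70.8 ± 4.52) at the top. Of 21 interferon response genes, 14 were expressed (66.7%, against 53.9% of protein-coding genes). The median over the whole list was 0.922 CPM per kb, and IFIT1, IFIT2, IFI27 and RSAD2 were all under 1 CPM. Of 21 cytokine and chemokine genes, 10 were expressed (47.6%, near the 53.9% of protein-coding genes). Among them were CCL5 (77.96, 113 and 78.5 CPM) and the galectin genes LGALS1 (85.8, 101 and 73.3) and LGALS9 (204, 191 and 188). IL6, IL10, CSF2 and CSF3 had 0 counts.

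The spread among the libraries came mainly from replicate 2. The coefficient of variation beyond counting error over the 3 libraries, from the common dispersion of edgeR, was 21.3%. It was 3.12% over replicates 1 and 3, 25.9% without replicate 1 and 25.5% without replicate 3. The median CV of expressed genes was 15.4% over 3 libraries and 4.40% over replicates 1 and 3. By level, the latter and the median CV that counting error alone gives were 16.1% against 21.6% at 1 to 3 CPM, 5.98% against 6.83% at 10 to 30 CPM, 2.42% against 2.41% at 100 to 300 CPM and 2.03% against 0.768% at 1000 to 3000 CPM, a band of 85 genes. A median CV over 2 libraries lies below the CV it estimates. The chi-square per degree of freedom between replicates 1 and 3 was 2.32, so they too differed by more than counting error. Among 12292 genes of at least 1 CPM on average, the log2 difference of replicate 2 from the mean of replicates 1 and 3 reached 2-fold upward for 732 (5.96%) and downward for 317 (2.58%). This sets 1 library against 2 and is a description with no test.

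Transcripts known to follow hypoxia-inducible factor, HIF, were shifted upward in replicate 2. Of 16 HIF target genes compared, 9 were at least 2-fold higher in replicate 2, against 5.96% of all genes, 0 were 2-fold lower, and the median log2 difference was 1.06. The median over all 12292 genes was -0.00395. The lists were chosen with earlier results of these data known, so these shares describe replicate 2 and are no independent support. PFKFB4, which makes the activator of phosphofructokinase, had 21.4, 229 and 26.02 CPM. BNIP3, a mitophagy receptor, had 37.4, 138 and 43.5 CPM, and NDRG1 303, 739 and 292. P4HA1, a collagen prolyl hydroxylase, had 112, 322 and 115 CPM, and among glycolytic genes ALDOC had 109, 446 and 109 and ENO2 7.95, 39.1 and 7.88 CPM. In each of these genes replicates 1 and 3 lay close together and replicate 2 far above. PFKFB4 overlaps exons of another gene on the same strand.

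The 150 bases before the RefSeq starts of 4 of these genes, picked by hand, are shown since HIF is known to bind ACGTG and GCGTG. The windows are on GRCh38.p14, run 5′ to 3′ and end at the base before the start. Capitals mark ACGTG or GCGTG on either strand, of which CACGTG in BNIP3 is ACGTG read on both strands:
ALDOC, chr17:28576896-28577045 (-): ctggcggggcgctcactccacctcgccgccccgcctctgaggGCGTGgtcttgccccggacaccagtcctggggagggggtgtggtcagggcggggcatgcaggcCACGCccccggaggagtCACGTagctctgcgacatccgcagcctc
P4HA1, chr10:73096867-73097016 (-): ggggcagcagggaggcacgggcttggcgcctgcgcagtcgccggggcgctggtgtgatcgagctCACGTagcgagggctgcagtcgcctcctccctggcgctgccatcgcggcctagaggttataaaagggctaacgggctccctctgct
BNIP3, chr10:131981924-131982073 (-): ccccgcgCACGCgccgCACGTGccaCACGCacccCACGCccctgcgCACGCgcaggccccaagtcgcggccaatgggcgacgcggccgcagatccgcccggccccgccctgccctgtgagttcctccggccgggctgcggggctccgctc
ENO2, chr12:6914430-6914579 (+): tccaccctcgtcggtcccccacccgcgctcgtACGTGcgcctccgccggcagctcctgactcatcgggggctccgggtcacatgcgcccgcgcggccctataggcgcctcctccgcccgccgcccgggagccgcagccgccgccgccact
In 300 bases around the start, 15 of 17 HIF target genes with a window held at least 1 of the pair (88.2%), and so did 71.6% of expressed protein-coding genes and 52.4% of all genes with a window. ACGTG was found for 64.7%, 33.3% and 24.9% of these sets, and GCGTG for 52.9%, 59.8% and 40.6%. PFKFB4, which is not shown, had GCGTG but no ACGTG in its window. ALDOC and ENO2 are of the glycolysis list and are not among the HIF target genes counted here. The motif is short and common, and its presence says nothing about binding in these cells.

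Genes of proliferation were lower in replicate 2. All 18 proliferation genes had a negative log2 difference, with a median of -0.71, and 7 were at least 2-fold lower, against 2.58% of all genes. MCM3, part of the replicative helicase, had 696, 280.4 and 669.7 CPM and PCNA 279, 108 and 299. CHAC1, which degrades glutathione (23.8, 6.74 and 21.9 CPM), and SLC7A11, the cystine importer (134, 38.7 and 139), were the lowest of the ATF4 targets, of which 5 of 19 were 2-fold lower and DDIT3 was 2-fold higher (11.5, 22.4 and 11.2 CPM). Heat shock genes had a median of -0.51 with 0 of 14 genes 2-fold apart in either direction. Myeloid identity genes and blood transcription factors were centred near 0, with medians of -0.05 and -0.05.

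**Figure D5:**
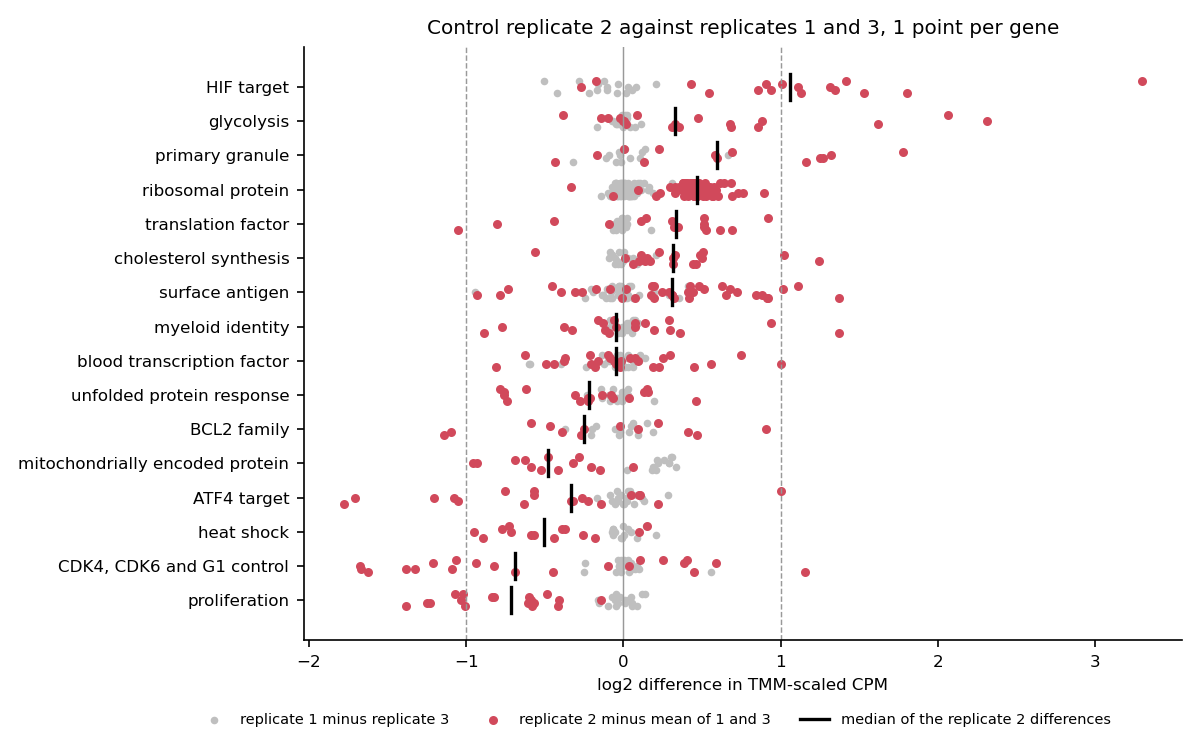
Log2 difference in TMM-scaled CPM of NT control replicate 2 from the mean of replicates 1 and 3 (red) and of replicate 1 from replicate 3 (grey) for the genes of 16 lists with at least 1 CPM on average. Black bars are medians, dashed lines mark 2-fold, and the median is 1.06 for HIF targets and -0.71 for proliferation genes. Not every list is plotted.

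Over all lists and other genes, those with the largest log2 differences of replicate 2 among 9727 protein-coding genes of at least 5 CPM were mixed in function. The highest was TBC1D30, a GTPase-activating protein gene, at 5.04, 120.0 and 7.17 CPM. It was followed by the histone gene H2AC6 (1.45, 17.7 and 1.42 CPM), JPH2 (1.88, 25.4 and 3.19), PFKFB4, PPP1R1B (1.45, 14.7 and 1.68) and SH3D21 (2.65, 14.2 and 1.42). ARG1 and the inhibitory receptor gene CD300A (16.4, 88.6 and 16.02 CPM) were also among the 12 highest, as were H1-2 (2.39, 17.7 and 4.34) and the clock output gene DBP (7.78, 41.2 and 8.23). Lowest were CSPG4 (10.6, 2.27 and 12.4 CPM), ZMAT3 (60.3, 13.3 and 61.9), HSD11B1 (20.4, 4.87 and 23.3), SGMS2 (8.38, 2.002 and 8.32) and OAS3 (10.1, 2.47 and 10.3). SH2B3, an adaptor that restrains cytokine signalling, had 52.9, 13.9 and 48.1 CPM, and CCND3 and CCNE2 were among the 12 lowest too.

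Between replicates 1 and 3, 103 of the same 12292 genes differed 2-fold, against 1083 and 1121 for the pairs with replicate 2. Among protein-coding genes of at least 20 CPM, the largest differences were in PPOX, of heme synthesis (21.9, 30.4 and 14.1 CPM), and CEBPD, a C/EBP factor (30.002, 53.3 and 45.6 CPM). PPIL4 (21.3, 23.8 and 30.4), ADGRL1 (22.8, 21.4 and 32.4) and SCAMP5 (24.1, 36.2 and 17.4) were among the 10 largest. CEBPD was lowest in replicate 1, whereas SPI1 and CEBPA were within 1.1-fold between these libraries.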

How the data were processed

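Polyadenylated RNA of control OCI-AML2 cells was measured in 3 libraries. The deposited table holds whole-number read counts per Ensembl gene, used as the authors deposited them, with no scaling. The submitters' processing notes name Trimmomatic, STAR and the GRCh38 build. The read counter is not given in the sources used here, nor is its strand setting or annotation. Columns were matched to samples by the library name in each label, and the table has 0 columns of other samples.

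CPM used the library total as the denominator. Exon lengths, positions and biotypes came from GENCODE 29, which held 57895 of the 58233 identifiers, and symbols from the gene name table for 57392. For each gene the share of 75-base transcript windows that also occur in another gene was computed, and 50% or more marks a level as uncertain. Low levels of such genes are frequent: of 1470 protein-coding genes at that mark 83.6% were not expressed, against 43.1% of the other 18321. Among 372 named genes with a count, 55 overlap exons of another gene on the same strand and 125 on the opposite strand only.

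TMM factors, log2 CPM with a prior count of 2 and the common dispersion came from edgeR 4.0.16 in R 4.3.3, and the dispersion step was checked on simulated data. No group comparison and no test was made. The 37 gene lists hold 693 different genes, of which 470 were expressed and 116 had no count. The members and lists were chosen with earlier results of these data known. Named genes are the 20 highest by CPM and by CPM per kb, up to 6 expressed members and up to 4 members with 0 counts of each list, members of the surface antigen, BCL2, G1, drug target, cytarabine, HOX and transcription factor lists, the 12 highest and 12 lowest differences of replicate 2 and the 10 largest between replicates 1 and 3. Other genes named with values, among them further list members, were chosen after their values were seen. Promoter windows of 300 bases are from RefSeq (GRCh38.p14). Some genes of the lists, and 1 list, are not reported here. Figures used matplotlib 3.10.9. The alternatives were each library left out, other thresholds, TMM, RLE, a total without mitochondrial genes, longest transcripts as length, another prior count and, added after the data were seen, lists without genes of shared windows.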

Additional observations from a re-analysis of the deposited data

How the results depend on the processing

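The number of expressed genes lay between 9845 at 5 CPM and 12611 at 0.5 CPM (11733 at 1 CPM). With each library left out it was 11878 to 11920, and TMM and RLE left it at 11733. The coefficient of variation between libraries ranged from 3.12% to 25.9% with 1 library left out, the low value without replicate 2. Genes with replicate 2 at least 2-fold higher numbered 679 to 779 under the other scalings and prior count, against 732, and those 2-fold lower 331 to 360, against 317. No median of a list changed sign. For 5 of 37 lists the count of expressed members changed by over 1.5 times at 5 CPM: 0 secondary and tertiary granule, 5 monocyte and macrophage, 0 mast cell, 1 B cell and 9 interferon response genes. The T cell list had 1 gene at 0.5 CPM. The megakaryocyte and platelet list had 1 (ITGA2B) in place of 0 at 0.5 CPM, at 10 counts, without replicate 3 and without mitochondrial genes in the total. Leaving out genes of shared windows changed no list by that much. Without replicate 2 the mean CPM of 24 of 372 named genes moved by over 1.5 times, and the longest transcript as length did so for 117. No paired analysis was possible because a single group was described and no test was made. Depth limits genes near 1 CPM, which is about 11 to 15 counts in a library.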

Other observations

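Several transcripts outside the lists were abundant in all 3 libraries. These genes were chosen after their values were seen. CD74, the invariant chain of class II antigen presentation, had 282, 381 and 256.01 CPM (96.3 ± 20.8 CPM per kb, SD, n = 3) where HLA-DRA had 0.359 and HLA-DPA1 1.41 CPM. ORM1, orosomucoid, a plasma protein known from liver, stood at 669 ± 272 CPM per kb, with 444, 885 and 479.5 CPM, and its neighbour ORM2 at 9.38 ± 2.65. CA2, carbonic anhydrase, had 507, 559 and 508 CPM. PPP1R27, a phosphatase regulator gene, had 506, 514 and 459 CPM. It lies on chromosome 17, 81833492 to 81835050, between MCRIP1 (18.98, 18.6 and 16.02 CPM) and P4HB (2669.9, 3151 and 2636 CPM), with 0% of windows shared. CFD, the next gene after ELANE on chromosome 19 (859643 to 863630), had 28.3, 65.9 and 36.2 CPM. Against the mean of replicates 1 and 3 in log2 CPM, AZU1, PRTN3, ELANE and CFD were all at least 2-fold higher in replicate 2. CFD was the smallest of these at 2.10-fold, and it was less than 2-fold above replicate 3 alone.

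Long non-coding RNA genes held 0.896, 1.25 and 0.875% of counts, and 652 of 14452 were expressed. Hosts of small nucleolar RNAs led, with SNHG29 at 1459.7, 2214 and 1383 CPM, GAS5 at 333, 635 and 338, SNHG5 at 243, 322 and 243 and SNHG6 at 162, 213 and 155. LINC00926 had 244, 624 and 237 CPM and was the most shifted of the 15 most abundant, with a log2 difference of 1.41 in replicate 2. NORAD (168, 166 and 175 CPM) and SNHG16 (215, 198 and 213) were level across the libraries. Some genes of protein synthesis were at low counts. EEF1G had 0 counts with 96.1% of windows shared and EIF4A1 10.3 CPM with 71.6%. RPS10 had 3.29 CPM with 65.8% and RPL17 5.90 CPM with 54.1%. Other genes with shared windows had high counts, such as ALDOA at 2296 CPM with 78.6%. How the counter treated reads that fit more than 1 gene is not given in the sources used here, and its part was not tested.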
